A study of Canis lupus familiaris with 2 samples.

Results

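The genes of the desmosome were compared between MDCK cells, an established canine kidney line that forms a sheet of columnar epithelium, cultured below medium that was 2 or 50 cm in height. Desmosomes are spot-like junctions that fasten the keratin filaments of neighbouring epithelial cells to each other. Desmogleins and desmocollins are the cadherins that bridge the gap between the cells, the armadillo proteins plakoglobin and the plakophilins bind their tails, and desmoplakin links this plaque to keratin. Simple epithelium, including that of the kidney tubule, is known to use desmoglein 2, desmocollin 2 and plakophilin 2, whereas desmoglein 3 and desmocollin 3 are typical of the basal layers of stratified epithelium such as epidermis. The members were 10 genes picked by symbol out of the 23510 features in the files, namely DSG2, DSG3, DSG4, DSC2, DSC3, DSP, JUP, PKP2, PKP3 and PKP4. The set was put together with the ratio of DSG3 between the cultures already known, so the ratios given here are descriptions and carry no test.

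RNA was sequenced from 1 MDCK culture in 2-cm-high medium, labelled 2 cm H2O and described in the labels as without pressure, and 1 MDCK culture in 50-cm-high medium, loaded with 50 cm H2O. They are called the 2-cm and the 50-cm culture, and values at 2 cm and at 50 cm refer to them. Both were grown on a semipermeable membrane in serum-containing EMEM to day 3. With 1 culture per medium height, no difference could be set against replicate error, and the medium height cannot be told apart from the culture dish, the library or the number of cells grown by then. Values are FPKM, the fragments on a gene divided by its exon length and scaled for library size, so levels of different genes can be compared per length. How the libraries were scaled to each other is not given. In a bulk lysate, fewer cells of a kind and less RNA per cell cannot be told apart. As for the label of the line, KRT7, KRT8, KRT18 and KRT19 were each at or above 1306 FPKM, PAX8 was at 65.1 FPKM at 2 cm and 57.6 FPKM at 50 cm, and the kidney cadherin CDH16 was at 1.96 and 0.676 FPKM. Among 9 markers of simple and renal tubular epithelium, 8 were above 1 FPKM in both cultures and CDH16 had the lowest level. Of these 8, 7 were lower at 50 cm, among them EPCAM (252.8 and 215.5 FPKM) and PAX2 (28.3 and 27.9 FPKM), with a median log2 ratio of -0.077 and a summed ratio of 0.934 over all 9.

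All 10 desmosome genes were listed in both files, 9 of them above 1 FPKM in both cultures. In 2-cm-high medium the order of FPKM ran JUP, PKP4, DSG2, DSP, PKP3, PKP2, DSC2, DSC3, DSG3, and at 50 cm DSG2 stood ahead of PKP4 and DSG3 ahead of DSC3. No spread over samples was available to say which neighbours in this order differ. DSG2 had 31.5 times the FPKM of DSG3 at 2 cm and 11.9 times at 50 cm, and DSC2 had 3.54 and 3.40 times the FPKM of DSC3. JUP, the highest, exceeded 96.5% of the features above 1 FPKM in both cultures at 2 cm, and DSG3, the lowest of the 9 at 2 cm, exceeded 9.2% there and 30.7% at 50 cm, where DSC3 was the lowest.

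**Figure D1:**
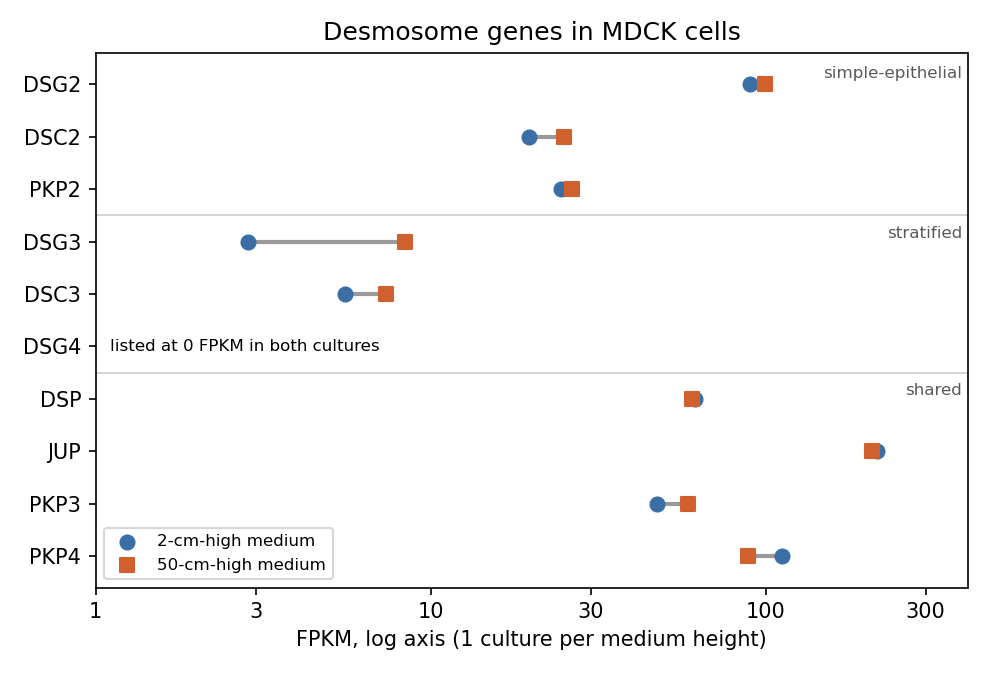
FPKM of the 10 desmosome genes on a log axis, circles for the 2-cm culture and squares for the 50-cm culture, 1 culture each and therefore without error bars. DSG3 has the longest line, from 2.84 to 8.36 FPKM, PKP4 is the member that moves furthest to the left, and DSG4 is listed at 0 in both cultures.

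DSG3 encodes desmoglein 3, the desmosomal cadherin of basal and lower suprabasal keratinocytes and the autoantigen of pemphigus vulgaris. Its level was 2.84 FPKM at 2 cm and 8.36 FPKM at 50 cm. Dividing the 50-cm by the 2-cm value gave 2.94 (log2 1.56), and DSG3 was the member with the largest ratio. It was also rank 9 among the 11057 features above 1 FPKM in both cultures, which is how it came to be looked at. Log2 ratios of the 500 features nearest to it in mean log2 FPKM had a scaled median absolute deviation of 0.30, a spread across genes that is no replicate error, and DSG3 lay at 5.15 times that deviation.

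The number of reads behind DSG3 is not given, but the file limits it. Among features below 0.1 FPKM in both cultures, 161 of 574 had a ratio that matched 1.09769 to within the rounding of the file, the ratio of a gene that has 1 read in both, so that 1 read was worth 9.8% more FPKM at 50 cm. If the 2 values of DSG3 are whole reads, the smallest numbers that give them to within rounding are 131 reads at 2 cm and 351 reads at 50 cm. One read would then be worth 0.0217 FPKM at 2 cm. With these numbers the ratio of 2.94 has an exact 95% binomial interval of 2.40 to 3.62, which covers counting error alone, and larger multiples of the numbers would narrow it. The interval compares these libraries and not the conditions. It makes no allowance for DSG3 having been picked by its large ratio, so that it leaves out 1 is no separate result.

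DSC3, desmocollin 3, found with desmoglein 3 in basal layers, was at 5.54 FPKM at 2 cm and 7.37 FPKM at 50 cm. Its ratio was 1.33, less than that of DSG3 and short of the 2-fold limit. The smallest whole reads that give its values are 19 and 23. For these numbers the 95% interval of the ratio runs from 0.69 to 2.58 and includes 1. One read would then be worth 0.292 FPKM at 2 cm, against 0.0217 FPKM for DSG3 with its smallest numbers. It would also be worth more than the whole value of the related DSC1, 0.0238 FPKM. The numbers 19 and 23 are thus likely a reduced fraction, and the interval is the widest that whole reads allow. Larger multiples of these numbers would narrow it. That this widest interval includes 1 therefore does not show the ratio to be within counting error. DSC3 was the more abundant of this pair at 2 cm, at 1.95 times the FPKM of DSG3, and the less abundant at 50 cm, at 0.881 times.

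The remaining stratified isoforms were at or near 0. DSG4, a desmoglein of the hair follicle, was listed at 0 FPKM in both cultures, and so were DSG1 and PKP1, which belong to the upper layers of stratified epithelium. DSC1, another upper-layer isoform, was at 0.0238 FPKM at 2 cm and listed at 0 at 50 cm. The files list 7740 features at 0 in both cultures, and without read counts such a value does not show that the RNA was absent.

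Markers of stratified epithelium were looked at beside DSG3. Of 6 basal markers, KRT5 and TP63 were listed at 0 in both cultures. KRT15 (0.0907 and 0.0498 FPKM) and KRT17 (0.201 and 0.0441 FPKM) were near 0 and lower at 50 cm. COL17A1 was at 141.1 and 153.7 FPKM, and KRT14 was at 4.403 and 52.26 FPKM. COL17A1 is also in the hemidesmosome list given further on, and the keratins are in the keratin lists. The summed level of the 6 was 145.8 FPKM at 2 cm and 206.1 FPKM at 50 cm. TP63 encodes the transcription factor p63 of basal keratinocytes, and KRT5 the usual partner of keratin 14. Of the 5 suprabasal markers in the files, KRT1 and FLG were listed at 0 in both cultures, KRT10 and IVL did not exceed 1.625 FPKM, and LOR, which encodes the envelope protein loricrin, was at 8.47 and 18.1 FPKM, a ratio of 2.13. The suprabasal sum was 10.4 and 20.9 FPKM. The sums of both lists were thus higher in the culture with more DSG3, mainly through KRT14, COL17A1 and LOR. KRT15 and KRT17 went the other way, and KRT5, TP63, KRT1 and FLG were listed at 0. Whether cells of a stratified kind had a part in the DSG3 value was not tested.

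The simple-epithelial isoforms were all somewhat higher at 50 cm. DSG2, the desmoglein found in every tissue that has desmosomes, was at 89.6 FPKM at 2 cm and 99.5 FPKM at 50 cm, a ratio of 1.11. DSC2, its desmocollin counterpart, was at 19.6 and 25.03 FPKM, a ratio of 1.28. PKP2, the plakophilin of simple epithelium and heart, was at 24.5 and 26.4 FPKM, a ratio of 1.08. Measured against the deviation of the 500 features of nearest level, DSG2, DSC2 and PKP2 lay at 0.76, 1.73 and 0.53 times that spread. DSC2 thus stood nearer to DSC3 in its ratio than to DSG2 or PKP2, and the difference between the isoform classes rested on DSG3. The summed FPKM of DSG2, DSC2 and PKP2 was 133.7 at 2 cm and 151.0 at 50 cm (ratio 1.13), and that of DSG3, DSC3 and DSG4 was 8.39 and 15.7 (ratio 1.88).

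Of the plaque genes common to both kinds of epithelium, JUP and DSP had ratios near 1. JUP encodes plakoglobin, which binds the tails of desmosomal and classical cadherins, and was at 215 FPKM at 2 cm and 207.8 FPKM at 50 cm, a ratio of 0.966. DSP encodes desmoplakin, the keratin anchor of the plaque, and was at 61.5 and 60.2 FPKM, a ratio of 0.977. Neither value was further from a ratio of 1 than 0.29 times the spread of the features of nearest level. PKP3, a plakophilin of most epithelia, was at 47.4 and 58.6 FPKM, a ratio of 1.24.

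PKP4 had the lowest ratio of the members. It encodes p0071, an armadillo protein of the p120-catenin family that is found at adherens junctions as well as desmosomes. The level was 111.5 FPKM at 2 cm and 88.6 FPKM at 50 cm, a ratio of 0.795 (log2 -0.33), at -1.65 times the spread of the features of nearest level. Of all features above 1 FPKM in both cultures, 12.9% had a lower ratio. Its relatives CTNND1, which encodes p120-catenin, and ARVCF had ratios of 0.923 and 0.896, from 49.0 to 45.2 FPKM and from 17.9 to 16.0 FPKM, and CTNND2 was at 0.480 and 0.498 FPKM. PKP4 had 2.28 times the FPKM of CTNND1 at 2 cm and 1.96 times at 50 cm.

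The make-up of each family was then calculated from the FPKM values. DSG3 took 3.07% of the summed desmoglein FPKM at 2 cm and 7.75% at 50 cm, a gain of 4.67 percentage points. DSG2 made up the rest. The DSC3 share of the desmocollins was 22.0% and 22.7%, a gain of 0.737 percentage points that came to 0.43 with a pseudocount of 1 and to 2.00 after quantile normalization of the cultures. PKP3 accounted for 65.9% of PKP2 plus PKP3 at 2 cm and for 68.9% at 50 cm, a gain of 2.97 percentage points. With PKP4 counted among the plakophilins, the largest shift in any of these shares was its own, from 60.8% of PKP2, PKP3 and PKP4 at 2 cm to 51.0% at 50 cm.

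**Figure D2:**
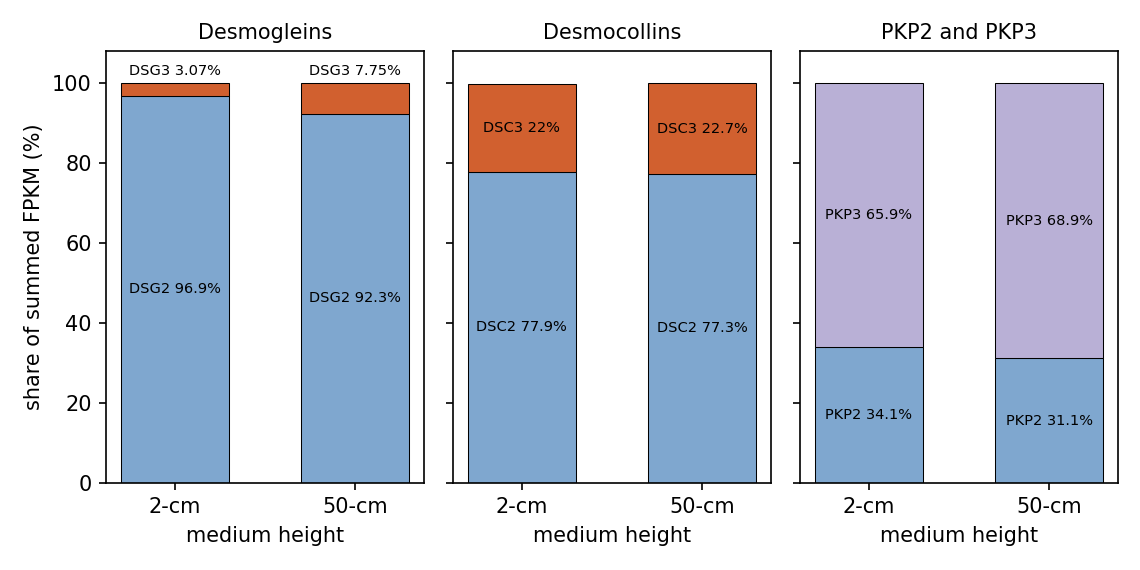
Share of summed FPKM (%) taken by each isoform in the desmogleins, the desmocollins, and PKP2 with PKP3, for the 2-cm and the 50-cm culture. The DSG3 segment is 3.07% and 7.75% of the bar, whereas the DSC3 segment is 22.0% and 22.7%.

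Desmosomal cadherins added up to 117.6 FPKM at 2 cm and 140.3 FPKM at 50 cm, a ratio of 1.19. Of the 22.6 FPKM by which the sums differed, DSG2 supplied 43.8%, DSG3 24.4%, DSC2 23.9% and DSC3 8.05%. DSG3 therefore contributed about as much to the difference as DSC2, although its level at 2 cm was far lower. JUP and DSP were not higher. The quotient of desmosomal cadherin to JUP FPKM was 0.547 at 2 cm and 0.675 at 50 cm, and that of desmosomal cadherin to DSP was 1.91 and 2.33. The quotient of JUP to DSP was 3.49 and 3.45. Desmogleins had 3.67 times the FPKM of desmocollins at 2 cm and 3.33 times at 50 cm.

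Across the set, 1 of the 9 members above 1 FPKM in both cultures, DSG3, was more than 2-fold higher at 50 cm, where 0.389% of all 11057 such features were. No member was more than 2-fold lower, against 1.28% of all features. In either direction the share over all features was 1.67%. By sign alone, 6 members were higher, where 52.6% of all features were, and 3 were lower (JUP, DSP and PKP4). The median log2 ratio of the 9 members was 0.15, that of DSG2, and the median of all features was 0.015. Since DSG3 was chosen for its ratio, its passing the limit is no result about the set. All 4 cadherins above 1 FPKM were higher, but they came to 4 genes in 1 pair of cultures.

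**Figure D3:**
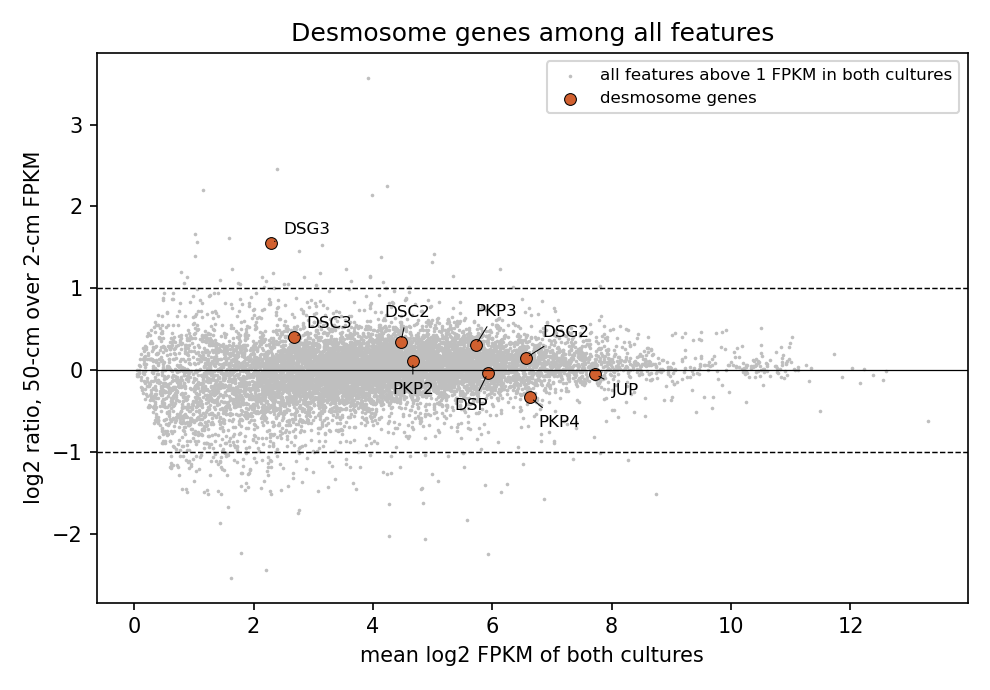
Log2 ratio of 50-cm over 2-cm FPKM against mean log2 FPKM of both cultures for the 11057 features above 1 FPKM in both (grey), with the 9 desmosome genes among them marked and the 2-fold limits dashed. DSG3 lies at 1.56, outside the limits, and the other 8 lie between -0.33 for PKP4 and 0.41 for DSC3, within the cloud of features.

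The desmosomal cadherin genes form a cluster on 1 chromosome, as in other mammals. In the RefSeq table of the dog assembly UU_Cfam_GSD_1.0, which is not the assembly used for mapping and served here for names and neighbours alone, the protein-coding genes follow each other in the order TTR, DSG2, DSG3, DSG4, DSG1, DSC1, DSC2, DSC3. The expressed genes stood at both ends of this row, DSG2 and DSG3 at one end and DSC2 and DSC3 at the other. DSG4, DSG1 and DSC1 between them were at or near 0 FPKM in both cultures, and so was TTR, the transthyretin gene next to DSG2. B4GALT6, the gene beyond TTR, was at 12.4 and 12.2 FPKM, a ratio of 0.986. LOC102154138, a noncoding RNA annotated between DSG2 and DSG3, was at 1.20 FPKM at 2 cm and 1.12 FPKM at 50 cm, a ratio of 0.935. LOC102154138, which was close to the minimum of 1 FPKM, and B4GALT6 were thus not higher at 50 cm. DSG2, DSC2 and DSC3 of the same cluster were, with ratios of 1.11, 1.28 and 1.33. Whether the place in the cluster had a part in the DSG3 value was not tested.

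**Figure D4:**
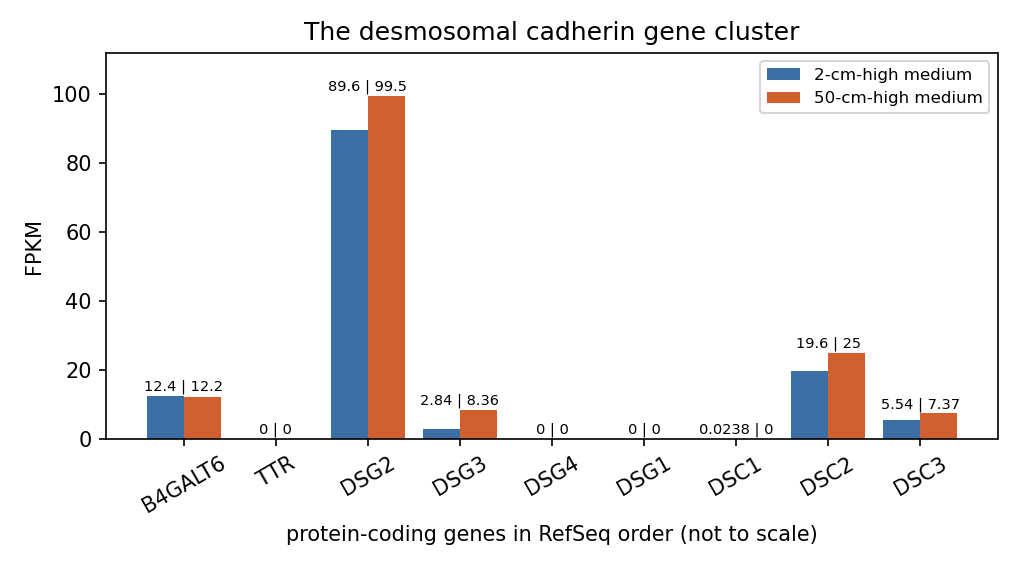
FPKM of the protein-coding genes of the desmosomal cadherin cluster and its neighbours B4GALT6 and TTR, in RefSeq order and not to scale, with bars and both values printed above them. The outer genes DSG2, DSG3, DSC2 and DSC3 have visible bars, and DSG4, DSG1 and DSC1 do not.

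Other desmosome genes differed little between the cultures. PERP, a membrane protein of desmosomes, was at 171.6 and 172.6 FPKM, a ratio of 1.01. The plakin PPL was at 58.0 and 60.8 FPKM (ratio 1.05) and its partner EVPL at 2.71 and 2.42 FPKM (0.891). KAZN, which encodes the periplakin-binding protein kazrin, had a ratio of 1.09, and PNN, which encodes pinin, had a ratio of 1.06. CDSN, the gene of corneodesmosin, was at 0.029 and 0.032 FPKM. With DSG1, DSC1 and PKP1, this list held 9 genes, of which 5 were above 1 FPKM in both cultures, with a median log2 ratio of 0.069. Of the 5, 0 passed 2-fold, against 1.67% of all such features.

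Adherens junctions, which share plakoglobin and the p120 family with desmosomes, served as the nearest comparison. Of 16 listed genes in the files, 11 were above 1 FPKM in both cultures, with a median log2 ratio of -0.047. At 50 cm 4 were higher and 7 lower, where 47.4% of all such features were lower. Past 2-fold were 0, against 1.67% of all such features. CDH3, which encodes P-cadherin of basal keratinocytes, had the highest ratio, 1.42, from 17.8 to 25.3 FPKM. PVRL3, which encodes nectin-3, had the lowest of the 11, 0.748. Of the listed genes not above 1 FPKM in both cultures, CDH16 (1.96 and 0.676 FPKM) and PVRL4 (0.659 and 0.181 FPKM) were lower at 50 cm. Their ratios were 0.345 and 0.274, at low levels. CDH2 and CTNND2, not counted either, were slightly higher, and CTNNA2 was listed at 0. CDH1, E-cadherin, was at 211.5 and 228.9 FPKM, which was 1.80 and 1.63 times the sum of the desmosomal cadherins. CTNNB1, which encodes beta-catenin, the close relative of plakoglobin, was at 278.2 and 234.8 FPKM (ratio 0.844), and JUP had 0.773 times its FPKM at 2 cm and 0.885 times at 50 cm.

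Hemidesmosomes anchor the same keratins to the basement membrane. The list also held ITGA3, ITGB1 and LAMA5, which are not confined to hemidesmosomes and had ratios of 1.405, 1.23 and 1.08. All 12 listed genes were above 1 FPKM in both cultures. Of these, 11 were higher at 50 cm, where 52.6% of all such features were. None (0) passed 2-fold, against 1.67% of all such features in either direction. Their median log2 ratio was 0.27, above the 0.15 of the desmosome genes and the 0.015 of all features, a description to which no test applies. PLEC, which encodes plectin, a plakin like desmoplakin, had the highest ratio, 1.61, from 86.1 to 138.7 FPKM. DST, which encodes the plakin dystonin, had the lowest, 0.960. The integrin pair ITGA6 and ITGB4 had ratios of 1.25 and 1.19.

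Keratins form the filaments that desmoplakin holds. The 4 simple-epithelial keratins above 1 FPKM had a median log2 ratio of -0.077 and a summed ratio of 0.933. For the 11 stratified keratins the sum was 64.4 FPKM at 2 cm and 158.5 FPKM at 50 cm, and 4 were above 1 FPKM in both cultures. KRT14 and KRT16, close relatives between which reads may be hard to divide, were more than 2-fold higher, where 0.389% of all features were. The difference between the sums came mostly from these genes. KRT1, KRT5, KRT6A and KRT6B were listed at 0 in both cultures, and KRT15 and KRT17, both near 0, were lower at 50 cm. As with the desmogleins, the stratified sum remained small beside the simple-epithelial sum of 6067 and 5658 FPKM.

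Of 21 listed regulators of desmosomal adhesion in the files, 20 were above 1 FPKM in both cultures, with a median log2 ratio of 0.036. Of these, 12 were higher and 8 lower, where 52.6% of all such features were higher. None (0) passed 2-fold, against 1.67% of all such features. PRKCA, the kinase known to weaken desmosomal adhesion, had the highest ratio, 1.63, from 4.06 to 6.64 FPKM. FLOT1, which encodes the lipid raft protein flotillin-1, had the lowest, 0.598, from 54.9 to 32.8 FPKM. The sheddases ADAM10 and ADAM17, which can cleave DSG2, had ratios of 0.957 and 0.990.

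**Figure D5:**
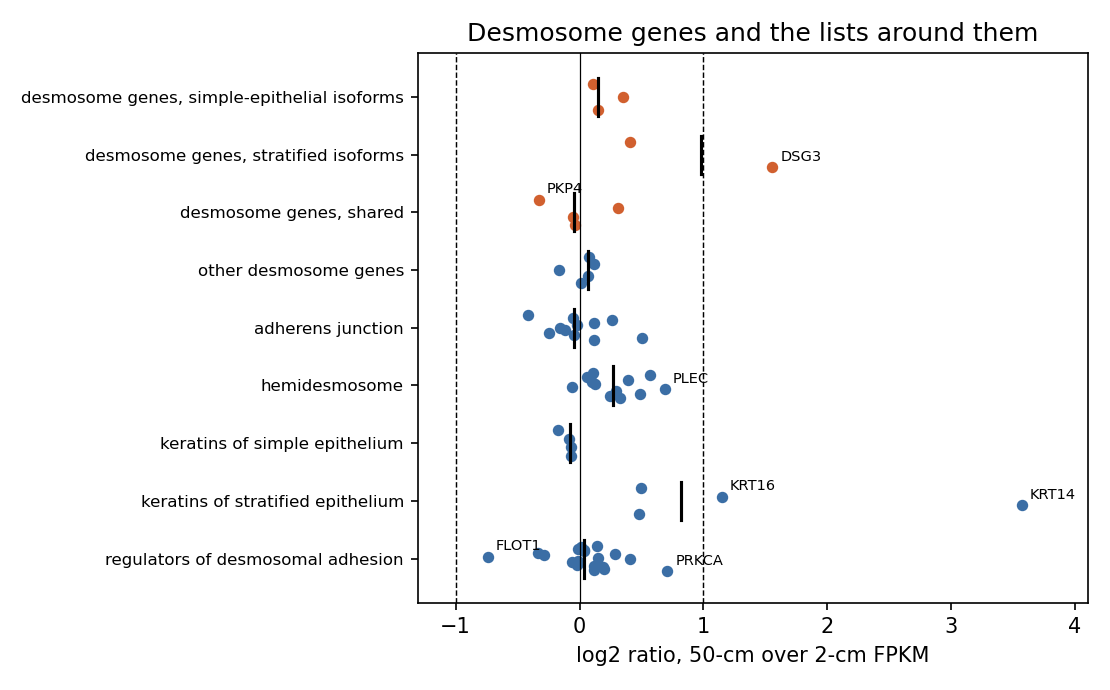
Log2 ratio of 50-cm over 2-cm FPKM for each gene above 1 FPKM in both cultures, by list and without the cell type markers, with orange points for the desmosome genes, blue points for the other lists, a black bar at each median and dashed 2-fold limits. Among the genes drawn, DSG3, KRT14 and KRT16 lie past the limits, and the hemidesmosome points lie to the right of 0 except DST.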

How the data were processed

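Per the labels and the study's methods, stranded mRNA libraries were sequenced as single-end reads and mapped to CanFam3.1 with TopHat2 2.0.13, Bowtie2 2.2.3 and SAMtools 0.1.19, and the authors calculated the deposited FPKM values with Cuffnorm 2.2.1. The annotation and scaling used are not given in the sources used here. Read depth is likewise not given. Ratios of 50-cm over 2-cm FPKM used no pseudocount and took in each feature that exceeded 1 FPKM in both cultures, with a ratio above 2 or below 0.5 counted as past 2-fold. Both limits were taken from the study's methods, and the number of features past them depends on the minimum (closing section). Shares, sums and quotients used the FPKM as deposited. Smallest whole-read numbers were sought for members below 10 FPKM in both cultures, allowing for rounding to the digits in the file. Members and lists were chosen with earlier results of these data known. The text names all members, all other desmosome genes, the extremes and 2-fold genes of each list, markers, and the 5 features nearest to DSG3. Further genes (relatives, partners and neighbours) were added after their values were seen. AFDN, ERBIN, SPRR3 and the NECTIN symbols were not matched, and older symbols were used where listed. RefSeq order came from a table that held all 10 members. The scripts (Python 3.11.15, numpy 2.4.6, pandas 2.3.3, scipy 1.17.1, matplotlib 3.10.9) were tested on simulated data.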

Additional observations from a re-analysis of the deposited data

How the results depend on the processing

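No paired analysis was possible because each medium height had 1 culture, and no replicate could be left out. The alternatives were an FPKM minimum of 0, 0.1 or 5 in both cultures, a pseudocount of 0.1 or 1, recentring on the median, quantile normalization, and rescaling without the 10 highest features. With a minimum of 5, DSG3 was not counted and 0 members were past 2-fold. In the 7 other settings DSG3 was the 1 member past 2-fold, with log2 ratios of 1.28 (pseudocount of 1) to 1.67, no member was 2-fold lower in any of the 8, and the median over members lay between 0.088 and 0.15. Over all features, 43 were more than 2-fold higher and 142 lower at the minimum of 1, against 451 and 765 at a minimum of 0, 229 and 501 at 0.1, 19 and 43 at 5, 24 and 68 with a pseudocount of 1, and 57 and 101 after quantile normalization. Rescaling moved the median of all features furthest, to -0.036. Signs of the single members were the same in every setting in which they were counted. The gain in the DSC3 share was 0.43 percentage points with a pseudocount of 1 and 2.00 with quantile normalization, so its size depended on the setting, whereas the gain in the DSG3 share was 4.38 to 5.17. Low levels limit DSG3 and DSC3 most.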

Other observations

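The 5 features nearest to DSG3 in the plane of both log2 FPKM values, a likeness that rests on 2 cultures, were DAB2, BGN, LOC102155210, LOC102152980 and LOC102155850. DAB2, which encodes an endocytic adaptor, was at 3.33 FPKM at 2 cm and 7.62 FPKM at 50 cm (ratio 2.29), and BGN, which encodes the matrix proteoglycan biglycan, at 3.15 and 6.73 FPKM (ratio 2.14). The other 3 are loci without a gene name, with ratios of 2.01 to 2.195. All 5 had ratios below the 2.94 of DSG3.

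Markers of mesenchymal cells were mostly near 0. Of 7 listed, VIM, the filament protein vimentin, was above 1 FPKM in both cultures, at 1802 FPKM at 2 cm and 2380 FPKM at 50 cm (ratio 1.32). CDH2, which encodes N-cadherin, was at 0.441 and 0.523 FPKM, and ZEB1, ZEB2, PDGFRA, PDGFRB and COL1A1 were each at or below 0.247 FPKM.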
